A study of Mus musculus with 3 samples.

Results

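Tfrc, Steap3, Slc11a2, Slc25a37, Slc25a38, Abcb10, Tmem14c, Fth1 and Ftl1 carry iron into a red-cell precursor, move iron and heme precursors across the mitochondrial membrane, or store iron. These 9 genes were taken by name from the 15058 genes in the deposited tables, and all 9 were found in them. RNA was sequenced from erythroblasts, the nucleated precursors of red cells, sorted from the circulating blood of E10.5 mouse embryos, at mid-gestation. The control library came from CD71+ Ter119-high cells of embryos with genotype Drosha fl/fl or Drosha fl/+, labelled as having wild-type Drosha abundance. The Drosha-null library came from CD71+ Ter119-high cells of Drosha fl/fl;cdh5-cre+ embryos, labelled null for Drosha. The Ter119-low library came from CD71+ Ter119-low cells of the same Drosha fl/fl;cdh5-cre+ genotype, labelled as holding Drosha at the wild-type level. Each library is a pool of cells from 5 embryos, and each group has 1 library, so no spread between animals could be measured and every interval here covers counting error only. Drosha releases microRNA hairpins from their primary transcripts in the nucleus, and the Cdh5 promoter drives Cre in endothelial cells, from which blood cells arise. Ter119 is a surface marker of maturing red cells. CD71 is the protein of Tfrc, so the sort itself selected cells by the product of one of the genes described.

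An erythroblast takes up transferrin-bound iron through the transferrin receptor, reduces it in the endosome, passes it into the cytosol and imports it into the mitochondrion, where the last step of heme synthesis inserts it into protoporphyrin. Iron that is not used is held in ferritin, a shell of heavy and light chains. The messages for ferritin and for the transferrin receptor carry iron-responsive elements, short hairpins that iron regulatory proteins bind when iron is scarce. Binding in a 5′ UTR blocks translation, and binding in a 3′ UTR protects the message from decay.

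These hairpins were looked for in the mouse transcripts (GENCODE annotation, GRCm38 build), because they are the known route by which iron acts on such messages. The motif searched on the sense strand was a C, 5 bases, the loop CAGTGN and 5 more bases, in which the 5 bases before and the 5 after the loop pair with each other, G-U pairs included. It was present in the 5′ UTR of 0.105% and in the 3′ UTR of 0.457% of 21901 protein-coding genes. Each line gives 30 bases from 5′ to 3′ with the loop in capitals, and Alas2, the erythroid enzyme of the entry step of heme synthesis, is shown for comparison.
Fth1 5′ UTR: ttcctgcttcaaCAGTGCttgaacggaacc
Ftl1 5′ UTR: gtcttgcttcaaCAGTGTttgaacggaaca
Tfrc 3′ UTR, match 1: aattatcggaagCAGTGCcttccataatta
Tfrc 3′ UTR, match 2: cattatcgggagCAGTGTcttccataatgc
Tfrc 3′ UTR, match 3: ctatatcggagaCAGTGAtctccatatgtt
Tfrc 3′ UTR, match 4: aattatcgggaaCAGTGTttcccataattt
Alas2 5′ UTR: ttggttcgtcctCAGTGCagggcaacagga

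The Fth1 window lies at chr19:9982732-9982761 on the plus strand and the Ftl1 window at chr7:45459778-45459807 on the minus strand. The Tfrc windows lie on the plus strand at chr16:32631219-32631248, chr16:32631598-32631627, chr16:32631663-32631692 and chr16:32631710-32631739, within a 3′ UTR of 2458 bases. The Alas2 window spans a splice junction. The other 6 genes held no match to this motif in any part of their transcripts. That does not show that they lack iron-responsive elements, because the motif misses any hairpin with an unpaired base in the stem searched. It also misses any hairpin with another loop sequence, so the matches printed for Tfrc, Fth1 and Ftl1 need not be all of their elements. A looser motif that asked for only 4 pairs and no C was tried after that result was seen, and it occurs in the 3′ UTR of 4.31% of genes. It added a match in the coding sequence of Slc11a2, across a splice junction and present in transcripts of 3025 and 4415 bases. It also added a match in the 3′ UTR of Slc11a2, at chr15:100395152-100395181 on the minus strand, and a match in the 3′ UTR of Slc25a37, at chr14:69242512-69242541 on the minus strand.
Slc11a2 3′ UTR, looser motif: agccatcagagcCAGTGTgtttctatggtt
Slc25a37 3′ UTR, looser motif: gcacatgatagcCAGTGTgttgattgtcat

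The 3′ UTR match of Slc11a2 is carried by the transcript of 4415 bases and not by that of 3025 bases. Whether the looser matches act as iron-responsive elements was not tested.

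Since the deleted enzyme makes microRNAs, the longest annotated 3′ UTR of each gene was searched on the sense strand for the 7 bases that pair with the seed, bases 2 to 8, of 6 microRNA families. The 3 microRNAs printed are those whose sites are shown, from RefSeq (GRCm38.p6), with the seed in capitals. The miR-144 and miR-451 hairpins lie close together on chromosome 11 and are known for their abundance in red-cell precursors.
miR-451a: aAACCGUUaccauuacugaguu
miR-144-3p: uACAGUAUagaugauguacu
miR-16-5p: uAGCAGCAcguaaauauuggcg

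The site for miR-451 (AACGGTT) occurs in 1.74% of 20948 3′ UTRs, that for miR-144-3p (ATACTGT) in 11.8% and that for miR-15/16 (TGCTGCT) in 20.2%. Steap3 held the miR-451 site, Tfrc held 2 sites for miR-144-3p, and Slc25a37 held 2 sites for miR-15/16, printed here with the site in capitals.
Steap3, miR-451 site: gttacatctccAACGGTTgcagagagctt
Tfrc, miR-144-3p site 1: ttatgacagttATACTGTcgttttctttt
Tfrc, miR-144-3p site 2: cttgccaacctATACTGTctttgctgaaa
Slc25a37, miR-15/16 site 1: acggatggtcaTGCTGCTgcctgggaaga
Slc25a37, miR-15/16 site 2: gatgtctgtcgTGCTGCTacagttgtaac

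The printed windows lie at chr1:120224691-120224719 (minus strand) for Steap3, at chr16:32631246-32631274 and chr16:32632684-32632712 (plus strand) for Tfrc, and at chr14:69243268-69243296 and chr14:69241884-69241912 (minus strand) for Slc25a37. The first miR-144-3p site of Tfrc starts 9 bases past the end of the window printed for match 1 to the hairpin motif. The Steap3 miR-451 site is annotated in 1 of 5 coding transcripts, the longest, of 5158 bases. Each Tfrc site is annotated in 1 of 3 coding transcripts and each Slc25a37 site in 1 of 2. Abcb10 and Steap3 each held 1 miR-15/16 site, in 1 of 1 and 4 of 5 coding transcripts. Slc11a2 held 1 let-7 site (CTACCTC, found in 8.98% of 3′ UTRs), in 1 of 6 coding transcripts. The miR-17/20/93 site (GCACTTT, 11.8%) and the miR-92/25 site (GTGCAAT, 6.56%) matched none of the 9 genes. Slc25a38, Tmem14c, Fth1 and Ftl1 held no site for any of the 6 families. A match is a string of letters and was not tested as a site, and mature microRNAs were not measured in these tables.

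The libraries were of like depth, with 9325814 to 9497425 estimated counts each and 27.9% to 28.7% of counts on ribosomal RNA. For Drosha itself 324 counts were found in control cells, 122 where the label is null and 244 in Ter119-low cells. Its log2 ratio, after scaling the libraries by TMM (trimmed mean of M values), was −1.81 (95% counting interval −2.13 to −1.51) for Drosha-null over control and −0.49 (−0.74 to −0.25) for Ter119-low over control. Which part of the gene the allele removes is not given in the sources used here, so counts outside it may remain in deleted cells. Of 12 defining erythroblast markers, 11 were listed, all with counts in every library. Their summed level was 277984 CPM for the control, 141216 for Drosha-null and 241167 for Ter119-low cells. CPM here are counts scaled to each library's total multiplied by its TMM factor, which was 0.885, 1.19 and 0.946 in the same order. These factors widen the gap between the control and Drosha-null sums. Before scaling, the listed markers had 2335758, 1573667 and 2148588 counts. Of these counts, 96.9% to 97.2% came from 3 embryonic globins, Hba-x, Hbb-y and Hbb-bh1. The other 8 markers summed to 8073, 4022 and 7568 CPM, mostly from Slc4a1, and for Drosha-null over control they ran from −1.21 (Slc4a1) to 0.03 (Rhag) on the log2 scale. The endothelial list of 12 genes summed to 11.4, 21.4 and 9.43 CPM in the same order, with 0, 0 and 2 of them at 0 counts. Pecam1 had 3, 55 and 4 counts and Tek 4, 25 and 1. For Drosha-null over control, Kdr (−0.17), Flt1 (−0.41) and Robo4 (−3.07, from 9 and 1 counts) lay below 0. The cardiac muscle list of 8 summed to 8.93, 28.7 and 6.4 CPM, with 3, 2 and 4 of its genes at 0 or not listed. Most of its counts came from Ttn (37, 181 and 42 counts) and Actc1 (19, 86 and 9), while Smyd1 had 0, 27 and 0. For Drosha-null over control, Tnnt2 (−0.09), Myl7 (−0.41) and Myh6 (−2.73, from 2 and 0 counts) lay below 0. The macrophage list of 13 summed to 6.31, 5.74 and 2.69 CPM, with 5, 4 and 10 of its genes at 0 or not listed. The megakaryocyte and platelet list of 10 summed to 50.9, 69.3 and 58.6 CPM, mostly from Itgb3 (312, 557 and 372 counts), with 3, 4 and 4 at 0 or not listed. The yolk sac endoderm and liver list of 12 summed to at most 0.898 CPM in any library. The part of these shifts in the ratios given for the 9 genes was not tested.

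Levels are given as deposited FPKM, counts scaled for gene length and library size, which allow genes to be compared within a library. Ferritin stood highest. Fth1, the heavy chain that oxidises iron, was at 4478 FPKM in control, 3739 in Drosha-null and 4096 in Ter119-low cells. Ftl1, the light chain that helps build the iron core, was at 3262, 2457 and 3587 FPKM. The pair held ranks 9 and 10 among all genes of the control, 8 and 9 in Drosha-null cells and again 9 and 10 in Ter119-low cells. Both genes have processed pseudogene copies, and how the authors' counting shared reads between copies is not given, so their levels are uncertain to that extent.

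The transport genes of the mitochondrion spanned a wide range. Slc25a37 (mitoferrin 1), which imports iron into erythroid mitochondria, was at 753 FPKM in control, 273 in Drosha-null and 746 in Ter119-low cells. Its rank was 78, 157 and 74. Tmem14c, an inner-membrane protein needed to bring protoporphyrinogen into the matrix, was at 347, 180 and 356 FPKM. Abcb10, an inner-membrane transporter that binds and stabilises mitoferrin 1, was at 78.2, 67.3 and 78.5 FPKM. Slc25a38, the carrier that brings in glycine for heme synthesis, was at 21.6, 10.2 and 17.7 FPKM, with ranks of 1656, 3926 and 2137. In the annotation (GRCm38) Slc25a37 lies at chr14:69241848-69285112, Tmem14c at chr13:41016292-41022586 and Slc25a38 at chr9:120110374-120124504. For Slc25a37, Tmem14c and Slc25a38 the Drosha-null library stood well below both others.

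Among the uptake genes, Tfrc was the most abundant, at 216 FPKM in control, 151 in Drosha-null and 222 in Ter119-low cells. Steap3, the endosomal reductase that turns ferric into ferrous iron, was at 29.8, 34.4 and 33.4 FPKM. Slc11a2 (DMT1), which carries ferrous iron out of the endosome, was at 19.5, 31.1 and 23.1 FPKM. Slc11a2 and Steap3 were the genes of the 9 whose FPKM was highest in the Drosha-null library. The Slc11a2 interval lay apart from both others (29.3 to 32.9 against at most 24.8), while that of Steap3 overlapped that of Ter119-low cells. This order of libraries rests on FPKM, to which TMM scaling was not applied. After TMM scaling Steap3 lay below both other libraries, at −0.27 against the control and −0.33 against Ter119-low cells (log2). Slc11a2 stayed above both, at 0.33 and 0.22.

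In the control the order from high to low was Fth1, Ftl1, Slc25a37, Tmem14c, Tfrc, Abcb10, Steap3, Slc25a38 and Slc11a2. Only Slc25a38 (19.3 to 24.2 FPKM) and Slc11a2 (18 to 21 FPKM) were neighbours with overlapping counting intervals. The first 7 kept this order in both libraries from Drosha fl/fl;cdh5-cre+ embryos, while Slc11a2 stood above Slc25a38 there. In the Drosha-null library Steap3 (32.2 to 36.8 FPKM) and Slc11a2 (29.3 to 32.9 FPKM) overlapped, and Slc25a38 (8.6 to 12 FPKM) lay well below both.

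**Figure D1:**
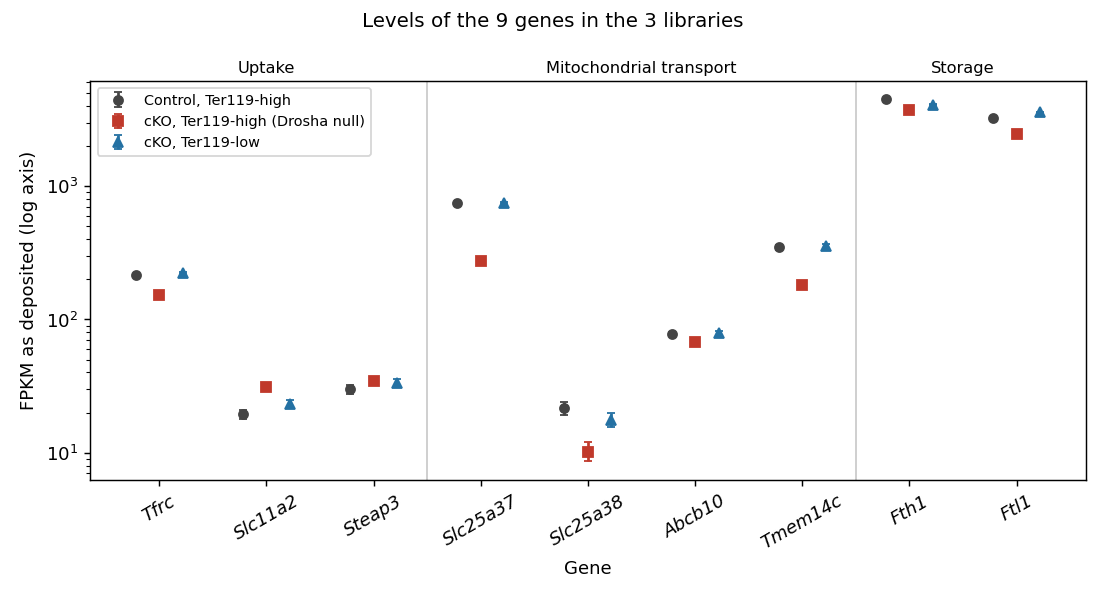
Deposited FPKM (log axis) of the 9 genes in control, Drosha-null and Ter119-low cells, 1 point per library, with bars for the 95% counting interval. Ferritin stands at the top in every library, and the Drosha-null points of Slc25a37, Slc25a38 and Tmem14c lie well below the other libraries' points.

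The comparison of Drosha-null with control Ter119-high cells asks how the genes differ where Drosha is lost. A gene was called when its TMM-scaled ratio was 2 or more either way and its counting interval excluded 1. All 9 genes were at 1 CPM or more, and 3 of them, Slc25a37, Slc25a38 and Tmem14c, were called lower. Over all 10769 genes at that level, 7.79% were called lower and 12.4% higher. None of the 9 was called higher. The log2 ratio was below 0 for 8 of 9, against 51.1% of all genes, with a median of −0.85, against −0.02. In bulk RNA, fewer cells of a type and less RNA per cell cannot be told apart.

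Slc25a37 had 29361 control and 10429 Drosha-null counts, a log2 ratio of −1.90 (−1.93 to −1.87) and a level of 26.8% of the control. Only 1.59% of the genes tested had a lower ratio. Among the 1010 genes at 100 CPM or more in the control, whose median ratio was −0.26, 6 lay lower than Slc25a37. Of the same 1010 genes, 17 lay lower than Tmem14c, 81 than Tfrc, 122 than Ftl1, 190 than Fth1 and 221 than Abcb10. Slc25a38 had 314 and 145 counts and a log2 ratio of −1.52 (−1.82 to −1.23), which is 34.9% of the control level. Its low counts make its interval the widest of the 9. Tmem14c had 2971 and 1513 counts and a log2 ratio of −1.38 (−1.47 to −1.29), or 38.4% of the control level. Abcb10 (3169 and 2675 counts) was at −0.65 (−0.73 to −0.58), so the binding partner of mitoferrin 1 differed less than mitoferrin 1 itself, with counting intervals far apart.

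Tfrc had 9994 control and 6862 Drosha-null counts and a log2 ratio of −0.95 (−0.99 to −0.91), just short of the ratio of 2 needed, so it was not called. The other uptake genes did not share that ratio. Steap3 (801 and 884 counts) was at −0.27 (−0.40 to −0.13) and Slc11a2 (663 and 1107 counts) at 0.33 (0.19 to 0.47). The ferritin chains lay between, with Fth1 at −0.70 (−0.72 to −0.68) and Ftl1 at −0.85 (−0.87 to −0.82), from 37213 and 30408 counts of Fth1 and 28479 and 20991 counts of Ftl1. The 5 genes with a microRNA seed match, Tfrc, Steap3, Slc11a2, Slc25a37 and Abcb10, ran from −1.90 to 0.33, and the 4 without one from −1.52 to −0.70. Those with a match have longer annotated 3′ UTRs, of 1849 to 3261 bases against 156 to 740. The part of microRNAs in these ratios was not tested.

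Scaling and gene length both moved these ratios. Scaled by total counts, the median of all genes tested moved up by 0.43 on the log2 scale, and the calls over all genes became 2419 higher and 302 lower, against 1333 and 839 with TMM. Slc25a37 and Slc25a38 stayed called, Tmem14c was at −0.95 and not called, and Steap3 turned to 0.17, so that 7 of the 9 lay below 0. The calls over all genes were 1707 higher and 540 lower when ribosomal RNA and globins were left out of the totals. From deposited FPKM they were 2567 and 391, by the ratio alone and without a counting interval. Short genes had lower ratios in the Drosha-null library: with genes split by length into 10 classes of equal size, the class that holds Tmem14c, Fth1 and Ftl1 had a median of −0.61. Relative to their class, Tmem14c was at −0.77 and no longer called, Fth1 at −0.09 and Ftl1 at −0.24. Tfrc, whose length class had a median of 0.18, was at −1.13 and called. Slc25a37 and Slc25a38 were called under that setting too. The part of gene length in these ratios was not tested further.

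**Figure D2:**
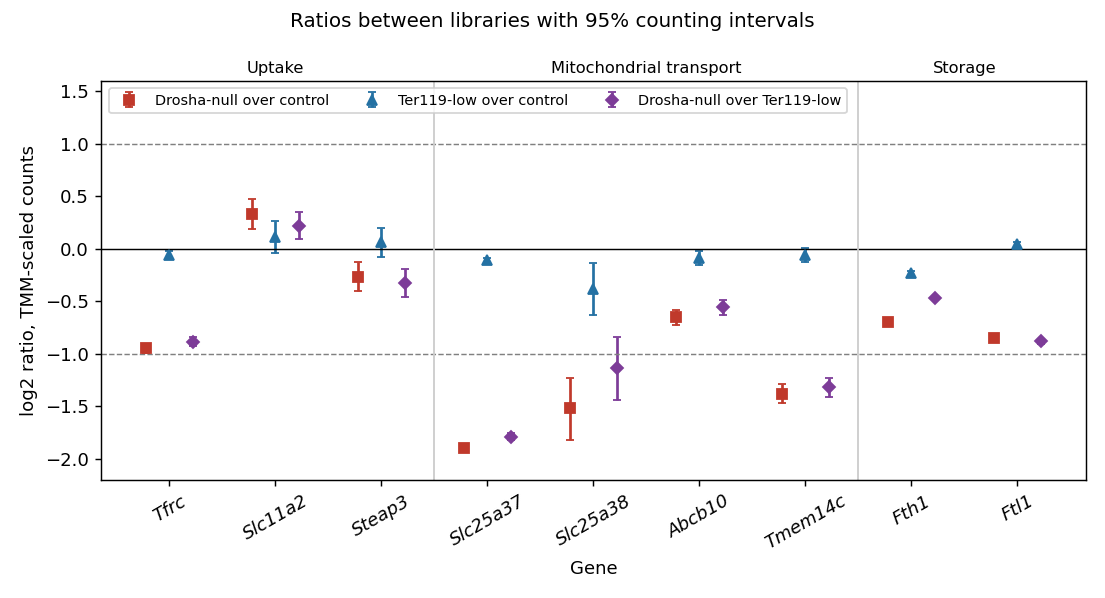
Log2 ratios of TMM-scaled counts for each gene in the 3 comparisons, with 95% counting intervals and dashed lines at a ratio of 2 either way. Slc25a37, Slc25a38 and Tmem14c pass the lower line in both comparisons of the Drosha-null library, and the Ter119-low over control points all lie between −0.38 and 0.11.

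The Ter119-low cells against the control ask how cells of the same knockout genotype look when labelled as holding Drosha. None of the 9 genes was called, where 2.76% of 10591 genes were called lower and 2.9% higher. The log2 ratios ran from −0.38 to 0.11, with a median of −0.06 against 0.00 for all genes tested, and 6 of 9 lay below 0 against 49.9% of all genes. Scaled by total counts, 3 of the 9 lay below 0. Slc25a38 was the lowest, with 314 control and 255 Ter119-low counts, a log2 ratio of −0.38 (−0.63 to −0.14). Fth1 was at −0.23 (−0.25 to −0.21), from 37213 and 33687 counts, while Ftl1 was at 0.04 (0.01 to 0.06), from 28479 and 30991 counts. Slc25a37 (29361 and 28821 counts) was at −0.11 (−0.13 to −0.09) and Tfrc (9994 and 10159 counts) at −0.06 (−0.10 to −0.02). Abcb10 was at −0.09 (−0.16 to −0.02). The intervals of Slc11a2 (−0.04 to 0.26), Steap3 (−0.08 to 0.20) and Tmem14c (−0.13 to 0.01) included 0. The cells of this library were sorted at another Ter119 level than the control, so sort gate and genotype cannot be told apart in this comparison.

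Set against the Ter119-low library, which has the same genotype, the Drosha-null library showed the same 3 genes called lower: Slc25a37 at −1.79 (−1.82 to −1.76), Tmem14c at −1.32 (−1.41 to −1.23) and Slc25a38 at −1.14 (−1.44 to −0.84). Over 10795 genes, 5.94% were called lower and 10.8% higher, and none of the 9 was called higher. Tfrc was at −0.89, Ftl1 at −0.88, Abcb10 at −0.56, Fth1 at −0.47, Steap3 at −0.33 and Slc11a2 at 0.22. The median of the 9 was −0.88, against −0.02 for all genes tested. With total counts as the scale, the median of all genes moved by 0.34, the calls over all genes went from 1170 higher and 641 lower to 1975 and 312, and only Slc25a37 of the 9 stayed called. Totals without ribosomal RNA and globins gave 1489 higher and 463 lower, and deposited FPKM, by the ratio alone, 2111 and 405. This comparison uses the same Drosha-null library as the comparison with the control, so the 2 are not independent, and here too the Ter119 gate differs between the libraries.

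The 9 genes together took 1.67% of control counts outside ribosomal RNA (exact binomial 95% interval 1.66 to 1.68), 1.12% (1.11 to 1.12) of Drosha-null and 1.66% (1.65 to 1.67) of Ter119-low counts. Ferritin and Slc25a37 supplied most of these counts.

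Ratios between genes of the same library do not depend on how libraries are scaled. Slc25a37 stood at 3.48 times the FPKM of Tfrc in the control (3.4 to 3.56), 1.8 times in the Drosha-null library (1.75 to 1.86) and 3.36 times in the Ter119-low library (3.29 to 3.44). The message for the mitochondrial importer thus stood lower relative to that for the receptor in the Drosha-null library. Relative to Fth1, Slc25a37 was at 0.168, 0.073 and 0.182. Steap3 over Slc11a2, reductase over endosomal carrier, was 1.53 (1.38 to 1.7), 1.11 (1.01 to 1.21) and 1.45 (1.31 to 1.6). From counts over 1 averaged length per gene it was 1.58, 1.04 and 1.52. The heavy over light chain of ferritin was 1.37 (1.35 to 1.39), 1.52 (1.5 to 1.55) and 1.14 (1.12 to 1.16), so here the Ter119-low library, not the Drosha-null one, lay lowest. The ratio of Tfrc to Fth1, receptor over storage, was 0.0483, 0.0405 and 0.0542. A shift by gene length does not cancel between genes of unlike length. In Drosha-null over control the length class of Fth1 had a median log2 ratio of −0.61, against 0.18 for Tfrc and 0.14 for Slc25a37. The part of length in the ratios to Fth1 was not tested. The intervals of the 3 libraries did not overlap for heavy over light chain, and they overlapped between the control and Ter119-low libraries for Slc25a37 over Tfrc and Steap3 over Slc11a2.

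**Figure D3:**
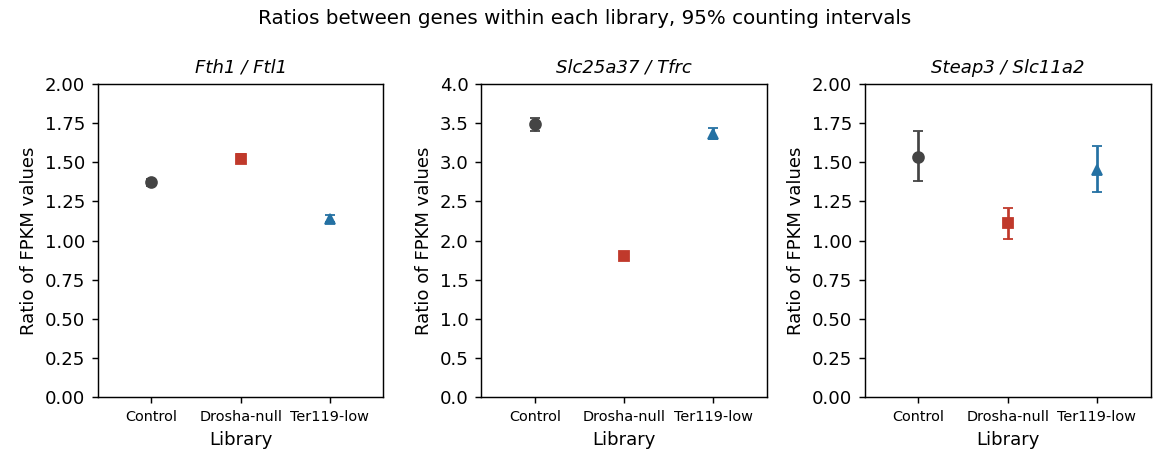
Ratios of deposited FPKM between 2 genes within each library, with 95% counting intervals, for Fth1 over Ftl1, Slc25a37 over Tfrc and Steap3 over Slc11a2. The Drosha-null library has the lowest value for Slc25a37 over Tfrc (1.8) and Steap3 over Slc11a2 (1.11), and the highest for Fth1 over Ftl1 (1.52).

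Slc11a2 differed between libraries in a second way. The length that its count and FPKM together imply was 3585 bases for control, 3822 for Drosha-null and 3498 for Ter119-low cells, a spread of 9.26%, larger than in 98.8% of 5401 genes with at least 100 counts in every library. All 3 lengths lie between 3025 and 4415 bases, the lengths of the transcripts without and with the 3′ UTR match to the looser motif printed above. The annotation searched holds 6 coding transcripts of Slc11a2, so these lengths do not show which transcripts were present. Implied lengths are not full transcript lengths: in the control Tfrc was at 4864 bases against a deposited gene length of 4920, and Fth1 at 875 against 942. For Steap3 the implied lengths were 2828, 2754 and 2820 bases, a spread of 2.7%, and all are well short of the transcript that carries its miR-451 site. The other 7 genes had spreads of at most 0.344%. The tables give genes, not transcripts, so the share of each transcript was not measured.

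Other genes of the pathway were read from lists by function, here for Drosha-null over control and then Ter119-low over control. Alas1, Slc39a14, Mcoln1, Pcbp4, Fam132b, Slc25a40, Fdx1, Fdxr and 5 of the iron-sulfur genes are named because they were called, after their values were seen. Counts of genes called are to be read against the shares over all genes tested, 7.79% lower and 12.4% higher in the first comparison and 2.76% and 2.9% in the second. The 9 heme synthesis enzymes were all below 0 in the first, with a median of −0.65 and none called, while scaled by total counts 7 of 9 were below 0 with a median of −0.21. Alas2 was at −0.66 (7368 and 6172 counts) and Cpox, which makes protoporphyrinogen, at −0.27. Urod, an earlier enzyme, was the lowest at −0.80, and Fech, which inserts the iron, was at −0.47. In the second comparison their median was 0.05, and Alas1, the general counterpart of Alas2, was called lower at −1.06 from 32 and 16 counts, though not when scaled by total counts.

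Of 10 partners of uptake and the endosome at 1 CPM or more, the median was 0.15 and 1 was called higher, Slc39a14, a metal importer with 19 and 69 counts (1.43), a share near the 12.4% of all genes called higher. Slc39a8, a related importer and the most abundant of the list, was at −0.77 (7097 and 5504 counts). Snx3, which helps return the transferrin receptor to the surface, was at −0.24, the exocyst subunit Exoc6 at 0.04 and Lrp10 at 0.31. In Ter119-low over control none was called and the median was 0.06. Scaled by total counts, Mcoln1 was called higher too and the Drosha-null median was 0.58. Tfrc, at −0.95, lay below each of these partners in Drosha-null over control.

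Of 13 genes of storage, release and regulation, the median was 0.12. Pcbp4 was called higher (20 and 54 counts) and Fam132b, the hormone erythroferrone, lower (21 and 11 counts, −1.31). Ncoa4, the receptor that delivers ferritin for breakdown, was at −0.54. Slc40a1, the iron exporter ferroportin, was at 0.84 (0.56 to 1.13), from 145 control, 345 Drosha-null and 174 Ter119-low counts. Aco1, the iron regulatory protein 1 when it lacks its cluster, was at 0.46, the heme oxygenase Hmox2 at 0.22 and the reductase Blvrb at 0.12. In Ter119-low over control Pcbp4 was the gene called higher (1.22), none was called lower and the median was −0.02. Scaled by total counts, Slc40a1 was called higher beside Pcbp4, Fam132b was not called and the Drosha-null median was 0.55.

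Of 12 mitochondrial iron and heme partners, the median was −0.05. Slc25a39, the mitochondrial glutathione carrier, was called lower at −1.25 (−1.40 to −1.11; 1033 and 574 counts). Slc25a40, its close relative, was called higher at 2.06 (1.32 to 2.97) from 16 and 91 counts. The porphyrin exporter Abcg2 was at −0.02 and Tspo at 0.17. Scaled by total counts, Slc25a40 was the gene called and the median was 0.38, on the other side of 0. In Ter119-low over control none was called and the median was −0.17.

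Iron-sulfur cluster assembly, the other main use of mitochondrial iron, had 7 of 22 genes called lower and 1 called higher, with a median of −0.73, where 7.79% of all genes tested were called lower and 12.4% higher. The 7 were Fdx1l (−2.06), Lyrm4 (−1.33), Bola3 (−1.12), Glrx5 (−1.10), Nubp2 (−1.10), Iscu (−1.04) and Isca1 (889 and 589 counts). Scaled by total counts, Fdx1l alone was called lower, among 302 genes in all, with 13 of 22 below 0 and a median of −0.30. Relative to genes of like length Fdx1l and Lyrm4 were called lower, among 615 in all. Glrx5, which hands on newly built clusters, was the most abundant, with 4152 and 2570 counts. Fdx1, a ferredoxin related to Fdx1l, was the gene called higher (16 and 60 counts, 1.47). The chaperone Hspa9 was at −0.21, Bola1 at −0.90, and the cytosolic assembly genes Ciao1 and Nubp1 at 0.26 and −0.78. In Ter119-low over control the median was −0.02 and Fdxr alone was called, higher at 1.23 from 17 and 43 counts.

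**Figure D4:**
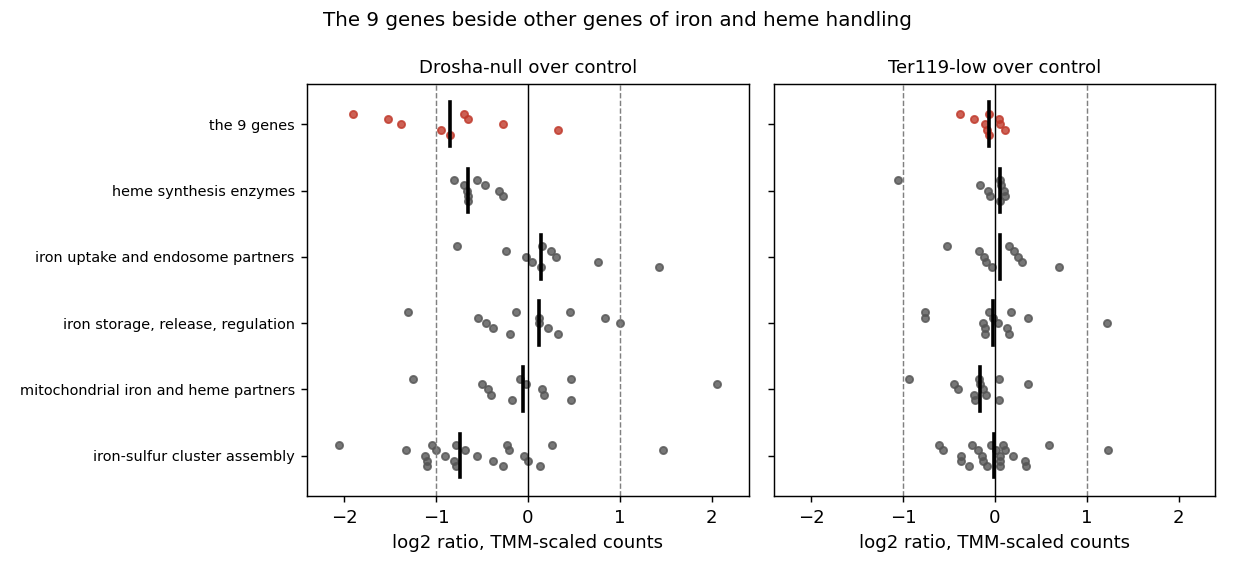
Log2 ratios of TMM-scaled counts for the 9 genes and for the genes of each pathway list at 1 CPM or more, 1 point per gene, with a vertical bar at each median and dashed lines at a ratio of 2. In Drosha-null over control the medians of the 9 genes (−0.85), heme synthesis (−0.65) and iron-sulfur assembly (−0.73) lie left of 0, while in Ter119-low over control all medians lie between −0.17 and 0.06.

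The genes nearest to Slc25a37 in their ratios were taken from 1009 genes at 100 CPM or more in the control, by distance over the pair of log2 ratios to the control. Only 3 libraries stand behind this likeness. Ahsp, the chaperone of free alpha globin, was nearest (−1.70 for Drosha-null and −0.08 for Ter119-low cells). Hba-a2, an adult alpha globin with near-identical copies that make its counts uncertain, followed (−1.71 and −0.19). Arrb1 was at −1.60 and 0.04, and Lmx1a at −2.22 and 0.08.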

How the data were processed

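The authors deposited 2 tables, each setting the control beside 1 other library, and the control values were identical in both. Per the file headers and values they hold estimated counts per gene, FPKM, gene length, a log2 ratio of FPKM, a p-value and an FDR. The authors' deposited log2 ratio, p-value and FDR (a score, since some values exceed 1) compare single libraries and were not used. For aligner, counter, annotation and build, nothing is given in the sources used here. These 2 tables were joined to 15058 genes. Expected counts were rounded to whole numbers, scaled by TMM (edgeR 4.0.16, R 4.3.3) and compared as log2 ratios with 0.5 counts added and exact 95% Clopper-Pearson counting intervals (SciPy 1.17.1). With 1 library per group no test was made. Depth was 9325814 to 9497425 counts per library, and a count of 0 allows up to 0.269 to 0.357 CPM (3 counts). Scaling, fold, filter, added count, FPKM and length were varied, with DESeq2 1.42.0 size factors among the alternatives. The calculation was tested on simulated data.

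The 9 genes and all lists were chosen with earlier results of these data known. The genes named are all 9, Drosha, the 5 nearest to Slc25a37 and, from each list, the 2 with the highest control FPKM and those with the highest and the lowest ratio among genes at 10 CPM or more. Of the genes that this rule names, 2 are not reported here.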

Additional observations from a re-analysis of the deposited data

How the results depend on the processing

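No paired analysis was possible because each group has 1 library. For Drosha-null over control, 3 of the 9 genes were called as reported, 7 at a ratio of 1.5 (with 1897 of all genes lower and 2105 higher) and 2 to 3 under the other 7 alternatives. For Drosha-null over Ter119-low, 3 were called as reported, 1 with scaling by total counts, 1 from the deposited FPKM, 5 at a ratio of 1.5 (1603 lower and 1961 higher over all genes) and 2 or 3 otherwise. Relative to genes of like length, Tfrc took the place of Tmem14c among the 3 called in both comparisons. Over all genes that setting called 615 lower and 1295 higher against the control, and 541 lower and 1132 higher against Ter119-low cells. For Ter119-low over control, none was called under any of the 8. The lower ratio admits more genes by its construction; the cause of the other shifts was not tested. No called ratio changed sign. Of 165 single-gene values under the alternatives, 86 lay outside the counting interval. Counting intervals are widest for Slc25a38, Slc11a2 and Steap3, which have the fewest counts, and with 1 library per group the spread between animals was not measured.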

Other observations

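Several of the genes have a relative with the same kind of task, and these were looked at after their values were seen. Slc25a28 (mitoferrin 2), the general counterpart of Slc25a37, had 59 control, 109 Drosha-null and 57 Ter119-low counts, or 4.13, 7.79 and 4.03 FPKM. Its log2 ratio was 0.47 (0.01 to 0.96) for Drosha-null over control and −0.13 (−0.69 to 0.42) for Ter119-low over control, both short of a call. Mitoferrin 1 remained by far the more abundant of the pair in each library. Tfr2, the second transferrin receptor, had 161, 254 and 189 counts and ratios of 0.25 (−0.04 to 0.54) and 0.15 (−0.16 to 0.46). Slc11a1, the relative of Slc11a2 in phagocytes, had 0, 6 and 0 counts, and Tmem14a, the relative of Tmem14c, also 0, 6 and 0. Transferrin itself (Trf) had 0, 7 and 0 counts. Each of these 3 was below 1 CPM in all libraries.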
